A study of Mus musculus with 6 samples.

Results

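The genes described here are 10 genes of contractile mesenchyme and of the mural cells that wrap blood vessels, chosen by name from the 37224 genes of the deposited table: *Acta2*, *Actg2*, *Tagln*, *Myh11*, *Cnn1*, *Mylk* and *Des* of the contractile apparatus, the transcriptional coactivator gene *Myocd*, and the pericyte genes *Rgs5* and *Cspg4*. All 10 symbols matched an Ensembl identifier of the table. They were followed in RNA of whole embryonic pancreata of wild type (wt) C57/Bl6J mice at 13.5 and 15.5 days post coitum (dpc), with 3 samples per stage, each pooled from at most 3 embryos. No sample carried a mutation or a treatment, so the single comparison is that of 15.5 with 13.5 dpc. Between these stages the pancreatic epithelium forms acinar and endocrine cells. The mesenchyme was not separated from the epithelium, and in such bulk RNA fewer cells of a type cannot be told apart from less RNA per cell.

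Smooth muscle cells contract when calcium activates myosin light chain kinase, which lets smooth muscle myosin pull on filaments of smooth muscle actin. Serum response factor switches many of these genes on by binding a promoter motif called the CArG box, and myocardin and its relatives act as its partners. Pericytes are mural cells of capillaries that share part of this apparatus and are commonly marked by Rgs5 and by the proteoglycan that *Cspg4* encodes. In the developing pancreas, mesenchyme surrounds the epithelial branches and supplies growth signals to them.

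Total counts per sample ranged from 10546028 to 16389237. Counts were scaled with the TMM method of edgeR (factors 0.847 to 1.08) and are given below as normalised counts, that is, counts at a common library size. The low-count filter of edgeR kept 15578 genes, on which its quasi-likelihood method compared the stages, and a gene was called at a Benjamini-Hochberg adjusted p at or below 0.05 over all of them. All 12 genes chosen to define pancreas passed that filter. *Cpa1*, a digestive enzyme gene, was the highest per exon length, and its log2 fold change from 13.5 to 15.5 dpc was 2.04 (adjusted p = 0.00345, edgeR). The insulin gene *Ins2* rose the most (2.64, adjusted p = 0.00221, edgeR) and the duct and progenitor gene *Sox9* fell the most (-0.67, adjusted p = 0.0123, edgeR). With 1 of the 13.5 dpc samples or 15.5 dpc replicate 3 left out, 0 genes of this list were called lower, so *Sox9* lost its call. The 15.5 dpc samples spread more than the 13.5 dpc samples. Differences between samples of a stage went with exon length in all pairs but 13.5 dpc replicates 1 and 2. At 15.5 dpc the Spearman rho of the log2 difference with exon length was -0.59 for replicate 1 minus 2. It was -0.49 for replicate 1 minus 3 and 0.52 for replicate 2 minus 3. At 13.5 dpc these were -0.03, -0.32 and -0.31. The pair of 15.5 dpc replicates 1 and 2 is described for the 10 genes further on.

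Of the 10 genes, 9 passed the filter on low counts and *Myocd* did not. *Acta2*, *Actg2* and *Tagln* were higher at 15.5 dpc by 1.80- to 2.19-fold, and *Rgs5* was lower by 1.80-fold, while *Myh11*, *Cnn1*, *Mylk*, *Des* and *Cspg4* did not pass the test. Over all genes tested, 11.6% were called higher and 10.7% were called lower, 22.3% in all (1805 and 1662 genes, but 1133 and 2952 with scaling by library size only). The median log2 fold change of the 9 genes was 0.78, against -0.01 over all genes tested, and it was 0.43 without 15.5 dpc replicate 2. The thresholds of the study were applied here to the edgeR values, whereas the study used DESeq2. They are protein-coding, a fold change outside 0.6 to 1.6, a mean above 100 normalised counts and an adjusted p of no more than 0.1. By them *Acta2* and *Tagln* were called as higher, where 5.82% of all genes tested were, and *Rgs5* as lower, where 3.51% were (9.33% in all). The 10 genes summed to 3883, 3923 and 4056 normalised counts at 13.5 dpc, and to 4261, 3938 and 3995 at 15.5 dpc, so the stages overlapped in the sum while its make-up differed.

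**Figure D1:**
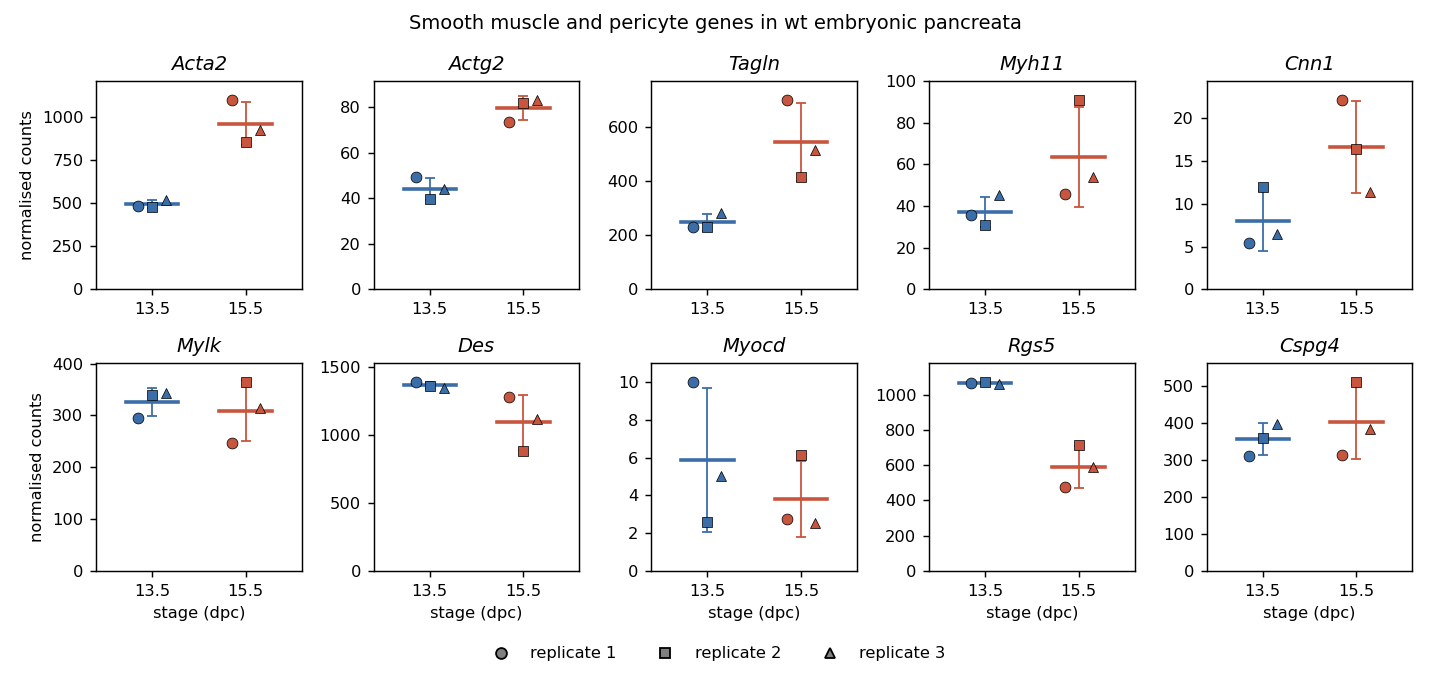
Normalised counts (vertical axes, from 0) of the 10 genes in each sample at 13.5 dpc (blue) and 15.5 dpc (red). Symbols are replicates, horizontal lines are means and error bars are SD (n = 3). The samples of the stages do not overlap for *Acta2*, *Actg2*, *Tagln*, *Myh11*, *Des* and *Rgs5*.

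*Acta2* encodes smooth muscle alpha-actin, the actin of vascular smooth muscle and of many activated mesenchymal cells. It lies on the minus strand of chromosome 19 of mm10, from 34241090 to 34255336, with 1781 exon bases. At 13.5 dpc replicates 1, 2 and 3 had 486, 479 and 521 normalised counts, against 1100.2, 858 and 927 in those of 15.5 dpc. Every 15.5 dpc sample was above every 13.5 dpc sample. The means were 495 ± 22.8 and 962 ± 125 (SD, n = 3), which is 0.96 ± 0.12 on the log2 scale (fold change and its standard error, adjusted p = 0.0022, edgeR), and it stayed at 0.85 to 1.04 when single samples were left out in turn, with an adjusted p of at most 0.022. Exact matches of 50 bases to transcripts of another gene were found in 0.326% of the windows of *Acta2* transcripts, more with *Gm12715* than with any other gene, and the assignment of reads between the actins was not tested.

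The promoter of *Acta2* is printed because it is a well known target of serum response factor and because *Acta2* had the highest level per exon length of the genes that rose. The sequence is that of RefSeq (GRCm38.p6), chr19:34255374-34255623, minus strand, the 250 bases before the RefSeq start of the gene, and capitals mark motifs like the CArG box.
*Acta2* promoter: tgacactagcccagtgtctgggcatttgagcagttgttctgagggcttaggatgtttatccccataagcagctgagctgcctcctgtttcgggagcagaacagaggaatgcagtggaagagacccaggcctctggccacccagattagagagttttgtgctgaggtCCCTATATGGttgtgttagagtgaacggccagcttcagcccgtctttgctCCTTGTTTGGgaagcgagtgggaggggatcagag
The strict CArG box has 6 bases of A or T between CC and GG and reads the same way on both strands. It was found in 0 of the 6 windows of this length that the table holds for the 10 genes (*Acta2*, *Cnn1*, *Mylk*, *Des*, *Rgs5* and *Cspg4*), and in 1.47% of the 32851 windows in the table. The *Mylk* window begins at 34784700 of chromosome 16, inside the counted locus that begins at 34745210, so it precedes an internal start of that gene. With 1 G or C allowed among the 6 bases, a form chosen after seeing the sequences, the *Acta2* window held 2 motifs, CCCTATATGG starting 84 bases and CCTTGTTTGG starting 34 bases before the start. At least 1 such motif was in 8.59% of all windows and 2 or more were in 0.67%. The other 5 windows held none. *Actg2*, *Tagln*, *Myh11* and *Myocd* had no entry. A match is a run of letters and was not tested for binding.

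*Actg2* encodes smooth muscle gamma-actin, the actin of gut and other visceral smooth muscle. It lies on the minus strand of chromosome 6, from 83512905 to 83536265, and none of its 50-base windows (0%) occur in another gene's transcripts. In order of replicate it had 49.2, 39.4 and 43.8 normalised counts at 13.5 dpc, against 73.3, 81.8 and 83.1 at 15.5 dpc, with no overlap. This is 0.85 ± 0.16 on the log2 scale (fold change and standard error, adjusted p = 0.00996, edgeR). With 46 to 80 counts per sample it was the lowest of the genes called, and the call was lost without 13.5 dpc replicate 2 (adjusted p = 0.0587), 13.5 dpc replicate 3 (adjusted p = 0.0544) or 15.5 dpc replicate 3 (adjusted p = 0.0511), at log2 fold changes of 0.77 to 0.84. Per exon length, *Acta2* stood 8.66- to 10.7-fold above *Actg2* at 13.5 dpc and 9.20- to 13.2-fold above it at 15.5 dpc, and these ranges overlap.

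*Tagln* encodes transgelin (SM22), an actin-binding protein that appears early in smooth muscle. It lies on the minus strand of chromosome 9, from 45929628 to 45936058. Exons of *Pcsk7* on the opposite strand cover 4.10% of its exon bases. Replicates 1 to 3 held 231, 228 and 282 normalised counts at 13.5 dpc, and 699, 415 and 513 at the later stage. All 15.5 dpc samples were above the 13.5 dpc samples, and replicate 1 was the highest of the 3. The means were 247 ± 30.2 and 542 ± 144 (SD, n = 3), which is 1.13 ± 0.20 on the log2 scale (fold change and its standard error, adjusted p = 0.00868, edgeR). It was 0.90 without 15.5 dpc replicate 1 (the lowest value with any single sample left out), and without 13.5 dpc replicate 1 the adjusted p was 0.0508 at a log2 fold change of 1.08.

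*Myh11* encodes smooth muscle myosin heavy chain, the motor of the contractile filament, which marks differentiated smooth muscle more narrowly than the actins do. At 13.5 dpc it stood at 35.5, 30.9 and 45.3 normalised counts, compared with 45.7, 91.0 and 54.1 at 15.5 dpc. The stages did not overlap, but the highest 13.5 dpc sample and the lowest 15.5 dpc sample were nearly equal. This is 0.78 ± 0.29 on the log2 scale (fold change and standard error, 95% confidence interval 0.10 to 1.47, adjusted p = 0.0934, edgeR). It was 0.97 without 15.5 dpc replicate 1 (adjusted p = 0.0234), 0.43 without 15.5 dpc replicate 2, the lowest value with any single sample left out, and 0.95 with the trend with exon length removed from each library (adjusted p = 0.014).

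*Cnn1* encodes calponin 1, which binds actin and restrains the myosin motor in differentiated smooth muscle. It had raw counts of 6, 14 and 9 at 13.5 dpc, against 16, 16 and 9 at 15.5 dpc, so counting error alone is large. In normalised counts these were 5.47, 12.0 and 6.46, and 22.1, 16.4 and 11.3, and the stages overlapped. This is 1.04 ± 0.40 on the log2 scale (fold change and standard error, 95% confidence interval 0.11 to 1.97, adjusted p = 0.0976, edgeR).

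*Mylk* encodes myosin light chain kinase, the calcium-activated switch of contraction, and is also expressed outside muscle. The 13.5 dpc samples held 295, 340 and 343 normalised counts, those of 15.5 dpc 248, 365 and 315. The samples of the stages were interleaved. This is -0.07 ± 0.16 on the log2 scale (fold change and standard error, 95% confidence interval -0.44 to 0.29, adjusted p = 0.748, edgeR), and it was above 0 without 15.5 dpc replicate 1 (0.063), scaled to broad mesenchyme genes (0.050) and with the trend with exon length removed (0.20).

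*Des* encodes desmin, the intermediate filament protein of muscle and of many pericytes. It lies on the plus strand of chromosome 1, from 75360329 to 75368579. Exons of *Gm15179* on the opposite strand cover 5.86% of its exon bases. Normalised counts of 1395, 1361 and 1351 at 13.5 dpc compare with 1283, 883 and 1119 at 15.5 dpc. All 15.5 dpc samples were below the 13.5 dpc samples, by unequal amounts. The means were 1369 ± 23.1 and 1095 ± 201 (SD, n = 3), which is -0.32 ± 0.14 on the log2 scale (fold change and its standard error, 95% confidence interval -0.65 to 0.0020, adjusted p = 0.13, edgeR). It passed the test without 15.5 dpc replicate 1 (-0.45, adjusted p = 0.0138) and with scaling by library size only (-0.55, adjusted p = 0.0136). It was -0.18 without 15.5 dpc replicate 2 (adjusted p = 0.156) and -0.13 scaled to broad mesenchyme genes (adjusted p = 0.742).

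The stages did not overlap for 4 genes that were higher at 15.5 dpc (*Acta2*, *Actg2*, *Tagln* and *Myh11*) and 2 that were lower (*Des* and *Rgs5*). Over all genes tested this held for 22.8% in the higher and 23.6% in the lower direction.

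*Myocd* encodes myocardin, the cofactor of serum response factor in cardiac and smooth muscle. It had 11, 3 and 7 counts in the 13.5 dpc samples, against 2, 6 and 2 in those of 15.5 dpc, out of at least 10546028 counts in each sample. It did not pass the filter on low counts. Without that filter its log2 fold change was -0.54 and it was not called, and with DESeq2 it was -0.57, with no adjusted p given. The more widely expressed partners *Mrtfa* and *Mrtfb* and the gene of serum response factor, *Srf*, singled out for that role after their values were seen, were well above it. *Srf* had 1321 and 1283 normalised counts on average at 13.5 and 15.5 dpc (log2 fold change -0.04, adjusted p = 0.736, edgeR). *Mrtfa* had 585 and 511 (-0.19, adjusted p = 0.262, edgeR) and *Mrtfb* had 638 and 493 (-0.37, adjusted p = 0.306, edgeR).

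*Rgs5* encodes a regulator that speeds the shutdown of G protein signals and is among the most used markers of pericytes. It lies on the plus strand of chromosome 1, from 169655501 to 169695813, with 4549 exon bases. It had 1065, 1073 and 1061 normalised counts in the 13.5 dpc samples, against 475, 712 and 587 in those of 15.5 dpc. The SD at 13.5 dpc was 0.553% of the mean, which is below the counting error at 1169 to 1477 raw counts and so understates the spread. All 15.5 dpc samples were far below those of 13.5 dpc, with replicate 1 the lowest. The means were 1066 ± 5.90 and 591 ± 119 (SD, n = 3), which is -0.85 ± 0.15 on the log2 scale (fold change and its standard error, adjusted p = 0.00785, edgeR). The call held with any single sample left out, at -0.99 to -0.71 with an adjusted p of at most 0.0453.

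*Cspg4* encodes the NG2 proteoglycan, which is on pericytes and also on precursors of oligodendrocytes. The 3 samples of 13.5 dpc gave 311, 358 and 397 normalised counts, those of 15.5 dpc 313, 510.3 and 384, and the stages overlapped. This is 0.18 ± 0.19 on the log2 scale (fold change and standard error, 95% confidence interval -0.26 to 0.63, adjusted p = 0.492, edgeR). It passed the test only with the trend with exon length removed, alone (0.40, adjusted p = 0.0163) or with the replicate number as a block (0.40, adjusted p = 0.0253), and it was -0.013 without 15.5 dpc replicate 2 and -0.013 with library size only. The count of *Rgs5* over that of *Cspg4* was 3.43, 3.00 and 2.68 at 13.5 dpc and 1.52, 1.39 and 1.53 at 15.5 dpc, so the ratio of the pericyte genes to each other was lower in each 15.5 dpc sample.

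**Figure D2:**
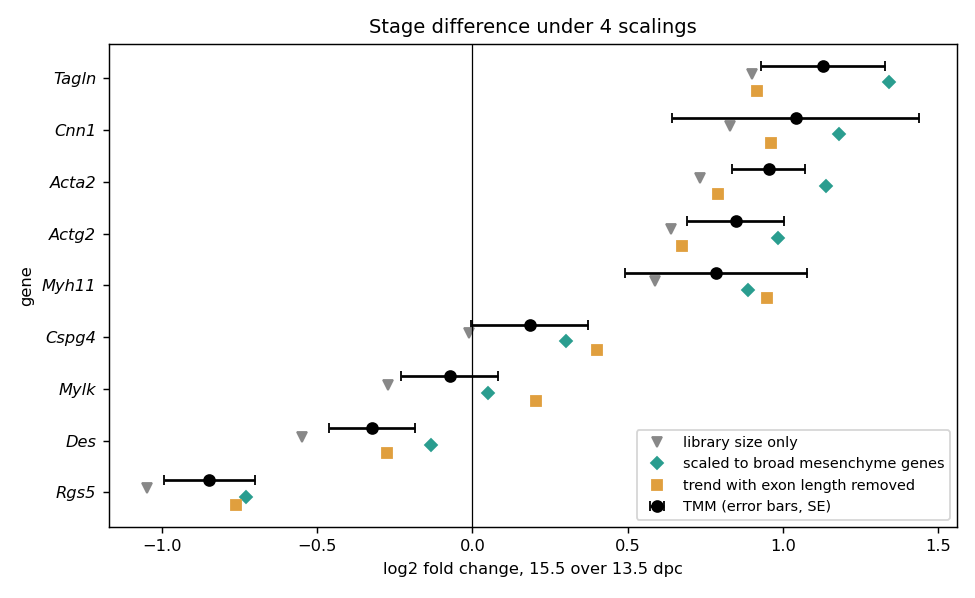
Log2 fold change of 15.5 over 13.5 dpc (horizontal axis) for the 9 genes tested, with TMM scaling (black circles, error bars are standard errors), with library size only, scaled to broad mesenchyme genes, and with the trend with exon length removed. *Acta2*, *Actg2*, *Tagln*, *Cnn1* and *Myh11* stay above 0 and *Des* and *Rgs5* below it under all 4, whereas *Cspg4* and *Mylk* cross 0.

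Levels were compared between genes as counts per kb of exon length and per 1000000 scaled counts, where exon length takes in every annotated exon. At 13.5 dpc *Des* was the highest at 28.9, followed by *Acta2* at 22.0, *Rgs5* at 18.5 and *Tagln* at 12.3. *Cspg4*, *Mylk* and *Actg2* followed at 3.49, 2.54 and 2.24, and *Myh11*, *Cnn1* and *Myocd* at 0.444, 0.267 and 0.0724. The samples of neighbours in this order overlapped only for *Mylk* and *Actg2* and for *Myh11* and *Cnn1*. At 15.5 dpc *Acta2* was the highest at 42.7, and *Tagln* (27.1) and *Des* (23.1) overlapped. *Rgs5* stood at 10.3. *Actg2* (4.02) and *Cspg4* (3.96) overlapped, above *Mylk* at 2.41, and so did *Myh11* (0.759) and *Cnn1* (0.555), while *Myocd* was again the lowest at 0.0469. *Des*, *Acta2*, *Tagln* and *Rgs5* were thus the 4 most abundant at both stages, and *Myh11* and *Cnn1*, which mark differentiated smooth muscle, stayed at or below 1.09 in every sample.

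**Figure D3:**
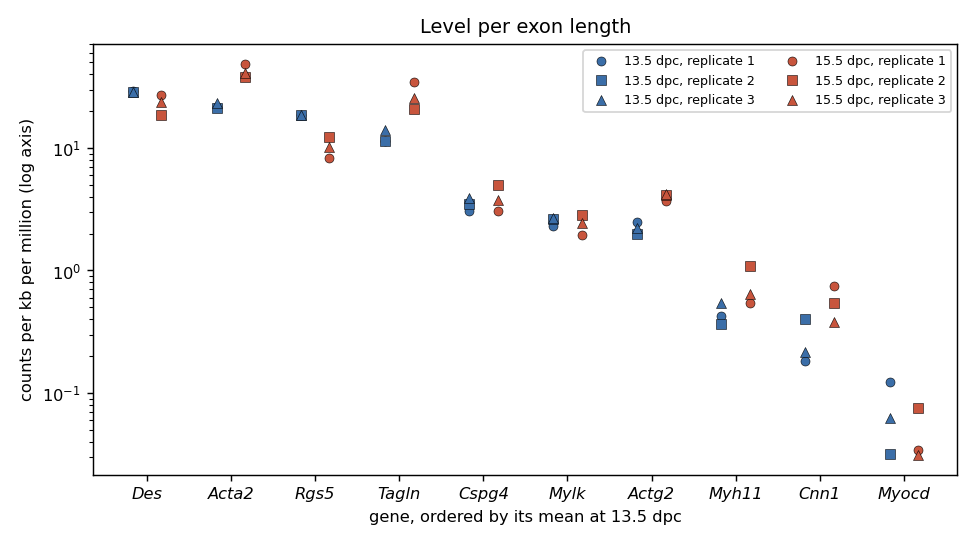
Level of each gene in counts per kb of exon length per 1000000 scaled counts (vertical log axis), by sample, with genes ordered by their mean at 13.5 dpc. *Des* is the highest gene at 13.5 dpc and *Acta2* at 15.5 dpc, and *Myocd* is the lowest at both.

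Within a sample, the share of a gene in the summed normalised counts of the 10 genes does not depend on the scaling. *Acta2* took 12.5%, 12.2% and 12.9% at 13.5 dpc and 25.8%, 21.8% and 23.2% at 15.5 dpc. *Tagln* took 5.81% to 6.94% and then 10.5% to 16.4%. *Rgs5* went the other way, with 27.4%, 27.3% and 26.2% and then 11.1%, 18.1% and 14.7%. *Des* took 33.3% to 35.9% and then 22.4% to 30.1%. *Cspg4* took 8.00% to 9.78% and then 7.34% to 12.96%, and *Mylk* 7.60% to 8.66% and then 5.81% to 9.27%, so that the shares of both overlapped between the stages. The count of *Acta2* over that of *Rgs5* was 0.456, 0.447 and 0.491 at 13.5 dpc and 2.32, 1.21 and 1.58 at 15.5 dpc.

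To set the genes against the mesenchyme as a whole, each was divided by the summed counts of 25 broad mesenchyme genes such as *Vim*, *Col1a1* and *Fn1*. *Acta2* had 2.91, 2.77 and 2.77 counts per 1000 of these at 13.5 dpc and 8.48, 4.53 and 5.64 at 15.5 dpc, a mean log2 difference of 1.09. *Tagln* differed by 1.25, *Actg2* by 0.99 and *Myh11* by 0.87. *Rgs5* had 6.38, 6.21 and 5.64 counts per 1000 at 13.5 dpc and 3.66, 3.76 and 3.57 at 15.5 dpc, a mean log2 difference of -0.73. Relative to the same genes *Cspg4* differed by 0.30, from 1.86, 2.07 and 2.11 to 2.41, 2.69 and 2.34. For these 6 genes the stages did not overlap (exact permutation test over samples, two-sided, p = 0.1 each, the smallest that 3 samples against 3 allow, for 10 genes compared). Over all genes tested, the same ratio did not overlap for 19.5% in the higher direction, that of 5 of these genes, and for 16.9% in the lower direction, that of *Rgs5*. *Des* (-0.20, exact p = 0.7), *Mylk* (0.051, exact p = 0.4) and *Cnn1* (1.23, exact p = 0.2) overlapped, as did *Myocd*. The difference of *Des* was -0.47 without 15.5 dpc replicate 1 and 0.076 without 15.5 dpc replicate 2, and that of *Mylk* was -0.023 without the collagens among the 25 genes. The summed normalised counts of the broad mesenchyme genes were 167083 to 188131 at 13.5 dpc and 129757 to 189421 at 15.5 dpc, with 15.5 dpc replicate 1 the lowest. The collagens weigh heavily in this sum. Without them the differences were 1.02 for *Acta2*, 0.92 for *Actg2*, 1.18 for *Tagln*, 0.80 for *Myh11* and -0.80 for *Rgs5*, still with no overlap. *Cspg4* then overlapped (0.23, exact p = 0.3) and *Cnn1* no longer did (1.16, exact p = 0.1). On that scale 23.3% of all genes tested were higher and 21.2% lower with no overlap.

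The spread at 15.5 dpc was not the same for all genes. *Acta2*, *Tagln*, *Cnn1* and *Des* were highest in 15.5 dpc replicate 1, *Myh11*, *Mylk*, *Myocd*, *Rgs5* and *Cspg4* in replicate 2, and *Actg2* in replicate 3. The first group has exon lengths of 1586 to 3754 bases and the second of 4549 to 10159. The log2 ratio of replicate 2 to replicate 1 ran from -0.75 for *Tagln* to 0.99 for *Myh11* among the genes tested, with a Spearman rho of 0.65 with exon length over these 9 genes and of 0.59 over 15566 genes. With this trend removed, *Acta2* (log2 fold change 0.79, adjusted p = 0.000265, edgeR), *Actg2* (0.68, adjusted p = 0.0304, edgeR), *Tagln* (0.92, adjusted p = 0.00158, edgeR) and *Rgs5* (-0.76, adjusted p = 0.00124, edgeR) passed the test, and *Myh11* and *Cspg4* did as well, as given above. Calls over all genes rose too, from 3467 to 5104 of 15578.

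**Figure D4:**
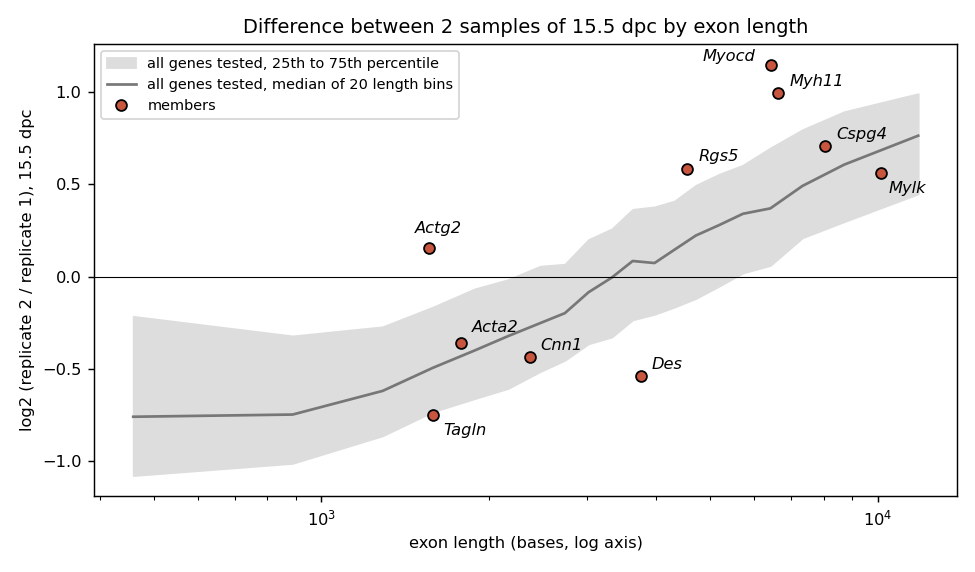
Log2 ratio of 15.5 dpc replicate 2 to replicate 1 (vertical axis) against exon length in bases (horizontal log axis). Red points are the 10 genes, the grey line is the median of all genes tested in 20 length bins and the band spans their 25th to 75th percentile. *Tagln*, *Des*, *Cnn1* and *Acta2* lie below 0, and *Actg2* and the 5 longest genes above it.

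Of 30 other contractile and cytoskeletal genes, all tested, 3 rose and 3 fell, with a median log2 fold change of 0.04. Among the genes called, *Csrp1*, a LIM protein of smooth muscle, rose by the most (0.72, adjusted p = 0.0225, edgeR). Some genes that did not pass the test had higher log2 fold changes, up to 0.92. *Itga8*, an integrin of smooth muscle and mesenchyme, fell from 241 to 75.5 normalised counts (-1.65, adjusted p = 0.00568, edgeR). *Csrp2*, the highest of the list per exon length, had a log2 fold change of 0.35 (adjusted p = 0.185, edgeR). With scaling by library size only, 2 rose and 6 fell and the median was -0.17, against -0.22 over all genes. With single samples left out in turn, the median was 0.0097 to 0.14, and 0 to 8 genes of the list rose and 1 to 7 fell. The highest counts of both came without 15.5 dpc replicate 2, without 15.5 dpc replicate 1 they were 6 and 4, and without any other sample 0 and 1. Scaled to broad mesenchyme genes, 1 rose and 1 fell, and with the trend with exon length removed, 8 rose and 5 fell (2812 and 2292 over all genes).

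Of 25 genes of smooth muscle regulators and their signals, 24 were tested. With edgeR none passed as higher (0, against 1 at an unadjusted p under 0.05 and 1 with DESeq2) and 5 fell, with a median of -0.21. *Tcf21*, a transcription factor of visceral mesenchyme, fell from 531 to 263 normalised counts (-1.01, adjusted p = 0.00189, edgeR). *Foxf1*, a transcription factor of gut mesenchyme, fell from 36.8 to 18.3, and the TGF-beta receptor gene *Tgfbr1* from 1614 to 884 (both named after their values were seen). *Rhoa*, a GTPase that tunes contraction and the highest of the list per exon length, had a log2 fold change of 0.21 (adjusted p = 0.145, edgeR). Without 15.5 dpc replicate 2, 12 genes fell and 1 rose, without 15.5 dpc replicate 1, 5 fell and 3 rose, and without any other sample 1 or 2 fell and 0 rose. The median of the list was -0.32 to -0.099 with single samples left out. Scaled to broad mesenchyme genes, 2 fell and 1 rose, and with the trend with exon length removed, 6 fell and 3 rose.

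Of 20 other pericyte and mural genes, 18 were tested, of which 3 rose and 4 fell, with a median of -0.22. Without 15.5 dpc replicate 2, 4 rose and 7 fell, and without either 13.5 dpc replicate 1 or 2, 3 rose and 2 fell. The median of the list was -0.27 to -0.12 with single samples left out. With the trend with exon length removed, 5 rose and 6 fell. *Ndufa4l2*, a mitochondrial protein gene much used as a pericyte marker, rose from 66.6 to 224 normalised counts (1.74, adjusted p = 0.00363, edgeR), and *Vtn*, which encodes vitronectin, from 2048 to 3878 (0.92, adjusted p = 0.00438, edgeR). *Vtn* was the highest of the list per exon length and, like *Anpep* (1.11, adjusted p = 0.000907, edgeR), is also expressed by epithelia. *Tbx2*, a transcription factor of mesenchyme, fell from 1938 to 975 (-0.99, adjusted p = 0.000716, edgeR). The potassium channel gene *Kcnj8* (-0.53) and the guanylate cyclase genes *Gucy1a1* (-0.79) and *Gucy1b1* (-0.95) fell too. *Pdgfrb*, the receptor through which endothelium recruits pericytes, had 2006 and 1723 normalised counts on average (-0.22, adjusted p = 0.229, edgeR). *Anpep*, *Kcnj8*, *Pdgfrb* and the cyclase genes are named outside the rule, after their values were seen.

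Other cell types that express some of the 10 genes were read from their markers. Of 12 endothelial genes, 1 rose (*Esam*, 0.46, adjusted p = 0.0406, edgeR) and none (0) fell with edgeR (0 at an unadjusted p under 0.05 and 0 with DESeq2). Without 15.5 dpc replicate 2, 4 rose and 1 fell, and without 15.5 dpc replicate 3 or any 13.5 dpc sample 0 did either. *Cdh5*, the cadherin of endothelial junctions and the highest of the list per exon length, had a log2 fold change of 0.12 (adjusted p = 0.583, edgeR). The endothelial genes summed to 8138 to 8696 normalised counts at 13.5 dpc and to 8828 to 9296 at 15.5 dpc, beside the lower *Rgs5*, and their part in it was not tested. Of 20 striated and cardiac muscle genes, 10 were tested, 2 rose and 1 fell (0 to 4 and 1 to 2 with single samples left out, 4 rising without 15.5 dpc replicate 1 and 0 without 13.5 dpc replicate 1 or 2). Their sum was 343 to 416 at 13.5 dpc and 414 to 594 at 15.5 dpc, below that of *Des* alone, with *Myf5* at 0 in all samples. Among them *Actc1*, the cardiac actin gene, rose from 29.2 to 74.0 normalised counts (1.37, adjusted p = 0.0208, edgeR), *Myog* rose from 9.32 to 23.6, and *Pln*, a regulator of the calcium pump, fell from 31.1 to 5.77. *Olig1* and *Olig2*, which define precursors of oligodendrocytes, were at or below 4.15 and 1.26 normalised counts in every sample. Of the 12 neural and glial genes, 10 were tested, 1 rose (*Ret*, from 725 to 1529 normalised counts) and 4 fell. *Tubb3*, the highest per exon length, had a log2 fold change of -0.33 (adjusted p = 0.0685, edgeR), and their sum was 2929 to 3273 at 13.5 dpc and 2908 to 4006 at 15.5 dpc.

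Of 11 gut, stomach and spleen genes, 7 were tested, of which 5 fell and 1 rose, but 2 fell and 1 rose when scaled to broad mesenchyme genes. Their median was -0.75 and -0.61 with that scaling, under which the genes called lower over all genes went from 1662 to 735. *Nkx3-2*, a transcription factor of splanchnic mesenchyme, fell from 320 to 97.6 normalised counts (-1.70, adjusted p = 0.00162, edgeR), and *Barx1* of stomach mesenchyme from 873 to 532 (-0.72, adjusted p = 0.0313, edgeR). *Vil1*, an epithelial brush border gene, rose from 146 to 336 (1.20, adjusted p = 0.00162, edgeR). The sum of the list was 2145 to 2407 at 13.5 dpc and 1251 to 1556 at 15.5 dpc, and the epithelial genes *Cdx2* and *Fabp2* stayed at or below 5.04 and 1.02 normalised counts. Of the 6 mesothelial genes found in the table, 1 rose (*Msln*, from 10.6 to 43.8 normalised counts) and 1 fell (*Wt1*, from 692 to 411), and *Upk3b*, the highest per exon length, had a log2 fold change of -0.01 (adjusted p = 0.928, edgeR). In this list 2 fell without 15.5 dpc replicate 1, with library size only and with the trend with exon length removed, and 1 fell without any other sample. *Myf5*, *Olig1*, *Olig2*, *Cdx2* and *Fabp2* were named as defining markers at or near 0, after their values were seen. The part of neighbouring tissue in the values of the 10 genes was not tested.

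**Figure D5:**
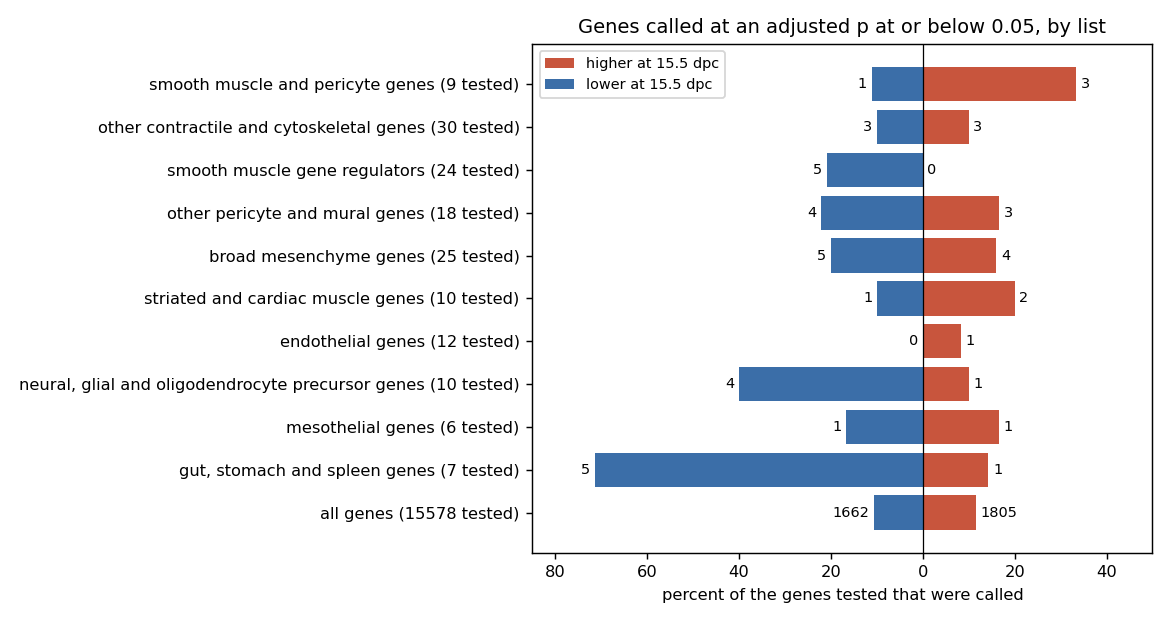
Percent of the genes tested in each list that were called at an adjusted p at or below 0.05 (horizontal axis), higher at 15.5 dpc to the right (red) and lower to the left (blue), with the number of genes beside each bar. All genes tested are the bottom bar, at 11.6% higher and 10.7% lower.

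The genes whose profile over the 6 samples was most like that of *Acta2* were sought among 11335 other genes with more than 100 normalised counts on average, by the Euclidean distance of centred log2 values. They were *Os9* (distance 0.089), *Sec61a1* (0.10) and *Lmna* (0.10), at log2 fold changes of 0.89 to 0.99. *Os9* and *Sec61a1* serve the endoplasmic reticulum and *Lmna* encodes nuclear lamins. Those most like *Rgs5* were *Arhgap42* (0.10), *Grb10* (0.11) and *Meis1* (0.11), at log2 fold changes of -0.89 to -0.84. *Arhgap42* encodes a GTPase-activating protein known in vascular smooth muscle, *Grb10* an adaptor of insulin and IGF receptors, and *Meis1* a homeodomain transcription factor.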

How the data were processed

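The authors aligned single-end reads to mm10 with GSNAP and used featureCounts 1.4.6 (version per the submitters' processing notes) to count uniquely aligned reads per Ensembl gene, and deposited raw counts without normalisation. The libraries were strand-specific and poly(A)-enriched. Whether counting used the strand is not given in the sources used here. All 6 count columns were used. The deposited table also gives exon lengths.

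Symbols were joined from GENCODE M21 (mm10) for 35449 of 37224 identifiers, at least 99.4% of the counts in any sample. The tests used edgeR 4.0.16 in R 4.3.3 (filterByExpr, TMM, quasi-likelihood test without covariates) and, as an alternative, DESeq2 1.42.0. Standard errors are the log2 fold change over the root of F. Alternatives were other scalings and filters, samples left out, the replicate number as a block, and removal of a lowess trend with exon length (span 0.5). Figures were drawn with matplotlib 3.10.9 in Python 3.11.15.

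The 10 genes and the other lists were chosen with earlier results of these data known. From each other list, the highest and lowest fold change called and the highest level per kb were named, and other names are marked. A gene that this rule names is not reported here. In simulated data for this comparison (15434 genes), 96 of 100 genes changed 2-fold and 100 of 100 changed 4-fold were recovered, with 18 false calls. The simulation gave every gene the same dispersion, had no trend with exon length and changed only genes above a set level. These rates therefore check the procedure and need not hold for the real samples or for genes with low counts. Pools are taken as separate samples, so p-values measure the spread between pools. Every pair of samples of a stage differed by more than sampling noise (chi-square per gene 1.61 to 63.2).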

Additional observations from a re-analysis of the deposited data

How the results depend on the processing

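Of 134 values of single genes under other settings, 116 kept direction and side of the threshold, a call was lost in 5 and gained in 7, and the sign changed in 6. The number of genes called higher was 3, against 5 with the trend with exon length removed (where calls higher over all genes went from 1805 to 2812), 5 at an adjusted p at or below 0.1, and 2 to 4 with single samples left out. The number called lower was 1, against 2 with library size only and 1 to 2 with single samples left out. The sign of *Mylk* (-0.07) changed scaled to broad mesenchyme genes (0.050) and with the trend with exon length removed, alone (0.20) or with the replicate block (0.20), and was -0.20 to 0.063 with single samples left out. That of *Cspg4* (0.18) changed with library size only (-0.013) and was -0.013 to 0.34 with single samples left out. The cause was not tested. The median over all genes, -0.01, was -0.22 with library size only and 0.14 with scaling to broad mesenchyme genes. Over all genes, 3467 were called, against 1628 scaled to broad mesenchyme genes, 5303 at an adjusted p at or below 0.1 and 1235 (without 13.5 dpc replicate 1) to 7620 (without 15.5 dpc replicate 2) with single samples left out. With DESeq2 the same numbers, 3 and 1, were called. *Cnn1* had fewer than 10 counts in a sample and drops out of a stricter filter, and counts this low limit it and *Myocd*.

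No pairing by replicate number was seen, since the deviations from the stage means correlated at 0.20, -0.20 and 0.03 for numbers 1, 2 and 3. With the replicate block, 3 genes were called higher and 1 lower, and 2676 over all genes. With the block and the length trend removed, *Actg2* lost its call (0.67, adjusted p = 0.0591).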

Other observations

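Within the broad mesenchyme list, which served as a denominator above, 4 of 25 genes rose and 5 fell, so it is not a fixed reference. *Mfap5*, a microfibril protein gene, rose from 36.6 to 97.3 normalised counts (adjusted p = 0.00638, edgeR), and *Pdgfra*, a growth factor receptor of fibroblasts, fell from 1732 to 687 (-1.33, adjusted p = 0.00605, edgeR). *Col1a1*, the highest of the list per exon length, had 35772 and 32817 normalised counts on average (-0.12, adjusted p = 0.602, edgeR). With single samples left out in turn, 2 to 7 genes of the list rose and 1 to 8 fell.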
